A study of Mus musculus with 10 samples.

Results

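The integrated stress response was examined in the tibialis anterior, a fast muscle of the lower leg, through 10 genes taken by symbol: the transcription factor gene Atf4 and 9 of its known targets, namely Ddit3, Asns, Trib3, Chac1, Psat1, Phgdh, Fgf21, Gdf15 and Sesn2. All 10 were found among the 39179 genes listed for every library, and 6 of them had enough counts to enter the test across 12690 genes. RNA was sequenced from 4 Control mice, injected with buffer, and 6 LLC mice, which carried subcutaneous tumors of Lewis lung carcinoma, a mouse lung cancer line whose tumors cause cachexia, a wasting of muscle and body mass. The sample labels give C57BL/6J mice injected at 10 weeks of age and 23 days of tumor development, while the series text gives C57BL/10 males of 8 weeks studied at day 22. No transgene or deletion was carried by either group, all tumors came from 1 cell line, and the LLC libraries were made from mice alive at the end of the experiment.

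The integrated stress response starts when a kinase (PERK, PKR, GCN2 or HRI) phosphorylates the initiation factor eIF2 on its alpha subunit. General translation then slows, while the mRNA of Atf4 is translated more through its upstream open reading frames, and the ATF4 protein turns on genes for amino acid synthesis and uptake, for feedback on the pathway and for secreted hormones. Because the main step is translational, the level of Atf4 mRNA does not measure ATF4 protein. In skeletal muscle the response is known from fasting, mitochondrial disease and disuse, and ATF4 is known as a factor that can promote muscle fibre atrophy.

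The site that ATF4 binds together with a C/EBP protein, the CARE, can be searched as letters. The promoter window of each gene, from 250 bases before to 50 bases after its start (RefSeq, GRCm38.p6), was searched on both strands for TGATGNAA, where N is any base. All 10 genes matched a window, 12 windows in all, and the letters were found in 4 genes, Asns, Trib3, Chac1 and Fgf21, against 3.97% of the 32851 windows of that length. The cyclic AMP element TGACGTCA, found in 1.79% of all windows, and the ER stress element, found in 0.119%, were in none of them. The 4 windows with a match are shown because these targets share the letters while their levels in muscle, given below, range from high to almost none. Capitals mark the match, and each window is written 5′ to 3′ on the strand of its gene, at chr6:7693160-7693459 for Asns (minus strand), chr2:152344011-152344310 for Trib3 (minus strand), chr2:119350992-119351291 for Chac1 (plus strand) and chr7:45615441-45615740 for Fgf21 (minus strand).
Asns: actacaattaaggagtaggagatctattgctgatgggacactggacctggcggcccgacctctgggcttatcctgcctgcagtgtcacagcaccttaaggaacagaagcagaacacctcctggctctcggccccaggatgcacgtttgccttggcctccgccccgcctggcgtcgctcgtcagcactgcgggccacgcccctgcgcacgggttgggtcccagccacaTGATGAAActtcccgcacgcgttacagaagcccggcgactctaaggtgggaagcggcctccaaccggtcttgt
Trib3: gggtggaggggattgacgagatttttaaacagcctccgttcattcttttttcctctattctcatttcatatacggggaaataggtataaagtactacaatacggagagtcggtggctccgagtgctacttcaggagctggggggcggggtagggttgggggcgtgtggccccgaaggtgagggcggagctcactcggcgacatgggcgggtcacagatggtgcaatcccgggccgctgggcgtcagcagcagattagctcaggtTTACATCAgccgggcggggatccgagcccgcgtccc
Chac1: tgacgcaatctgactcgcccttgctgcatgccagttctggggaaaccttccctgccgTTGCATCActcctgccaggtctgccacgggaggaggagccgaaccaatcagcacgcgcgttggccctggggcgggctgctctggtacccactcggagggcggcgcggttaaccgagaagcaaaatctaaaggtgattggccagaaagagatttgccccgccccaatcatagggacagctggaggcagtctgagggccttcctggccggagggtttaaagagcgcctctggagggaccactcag
Fgf21: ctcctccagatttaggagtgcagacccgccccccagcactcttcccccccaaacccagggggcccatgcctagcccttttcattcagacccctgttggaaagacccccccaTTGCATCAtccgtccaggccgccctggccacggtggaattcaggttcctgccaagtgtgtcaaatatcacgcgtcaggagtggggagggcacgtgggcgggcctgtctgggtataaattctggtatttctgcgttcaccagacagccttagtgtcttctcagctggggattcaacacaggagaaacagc
The match began 23 bases before the start in Asns, 193 before it in Chac1 and 139 before it in Fgf21, and at base 15 of the transcript in Trib3. In Chac1 and Fgf21 it was the same run of letters, TTGCATCA, on the strand of the gene. A match of letters is not a measured binding site.

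The Control libraries held 19294257 to 21303084 counts and the LLC libraries 16693209 to 19962335. Values are counts per 1000000 (CPM) after TMM scaling of the libraries, and 3 counts, the least taken as detected, were 0.148 to 0.174 CPM. The fast fibre markers Acta1, Ckm, Mylpf, Tnnt3, Pvalb, Myh4, Atp2a1 and Actn3 were high in every library, with a summed level of 125165 to 134367 CPM in Control and 87692 to 144464 CPM in LLC, lowest in LLC 1. LLC 1 and LLC 5 stood apart from the other tumor libraries, with 20.3% and 11.1% of all tested genes at least 1.5-fold above the Control mean against 3.16% to 6.00% in LLC 2, 3, 4 and 6. They also had the smallest shares of mitochondrially encoded counts, 22.0% and 22.9%, against 25.8% to 30.7% in the other 8 libraries. All 7 neutrophil markers rose, from a summed 1.06 to 2.17 CPM in Control to 33.4 to 72.9 CPM in LLC, highest in LLC 5, and all 6 fibroblast markers fell, from 244 to 314 CPM to 48.7 to 83.4 CPM. Macrophage markers summed to 13.6 to 20.1 CPM and 9.09 to 15.0 CPM (1 of 6 tested passed, lower), endothelial markers to 224 to 300 CPM and 225 to 268 CPM (1 of 5, lower), satellite cell markers to 23.5 to 29.3 CPM and 21.3 to 34.4 CPM (2 of 4, lower), and adipocyte markers to 1.04 to 7.41 CPM and 1.75 to 4.01 CPM (0 of 3). Most of the satellite cell sum was Cdh15, at 18.3 to 23.7 CPM in Control and 17.6 to 31.5 CPM in LLC. Pax7 was 2.08 to 2.67 CPM in Control and 0.892 to 1.61 CPM in LLC. No marker was at 0 in every library. The part of these cell types in the results that follow was not tested, and in bulk muscle fewer cells of a type and less RNA per cell cannot be told apart.

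Among the 10 genes, Ddit3 alone passed the threshold, and it was lower in the tumor-bearing mice. To pass, a gene needed at least a 1.5-fold change and, in edgeR's quasi-likelihood test, a p no higher than 0.05 after Benjamini-Hochberg adjustment, which 5.63% of the 12690 tested genes passed, 1.65% as higher and 3.99% as lower. So 1 of the 6 tested genes passed, and with no minimum fold it was still 1 of 6, against 6.99% of all tested genes. By unadjusted p 2 of 6 did (Ddit3 and Asns), against 27.4%. In 1 of the 6 (Ddit3) all LLC libraries lay below all Control libraries, which 9.57% of tested genes showed, and in 0 of 6 they lay above, which 6.40% showed. The other 5 tested genes, Atf4, Asns, Trib3, Chac1 and Sesn2, had log2 fold changes above 0, from 0.15 to 0.61, and none passed. The median log2 fold change of the 6 was 0.36, against 0.00193 over all tested genes. Under the DESeq2 Wald test Ddit3 was again the 1 gene of the 6 that passed, where 8.29% of all genes did. Without Control 4, and with no filter on low counts, Phgdh entered the test and also passed, as lower.

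**Figure D1:**
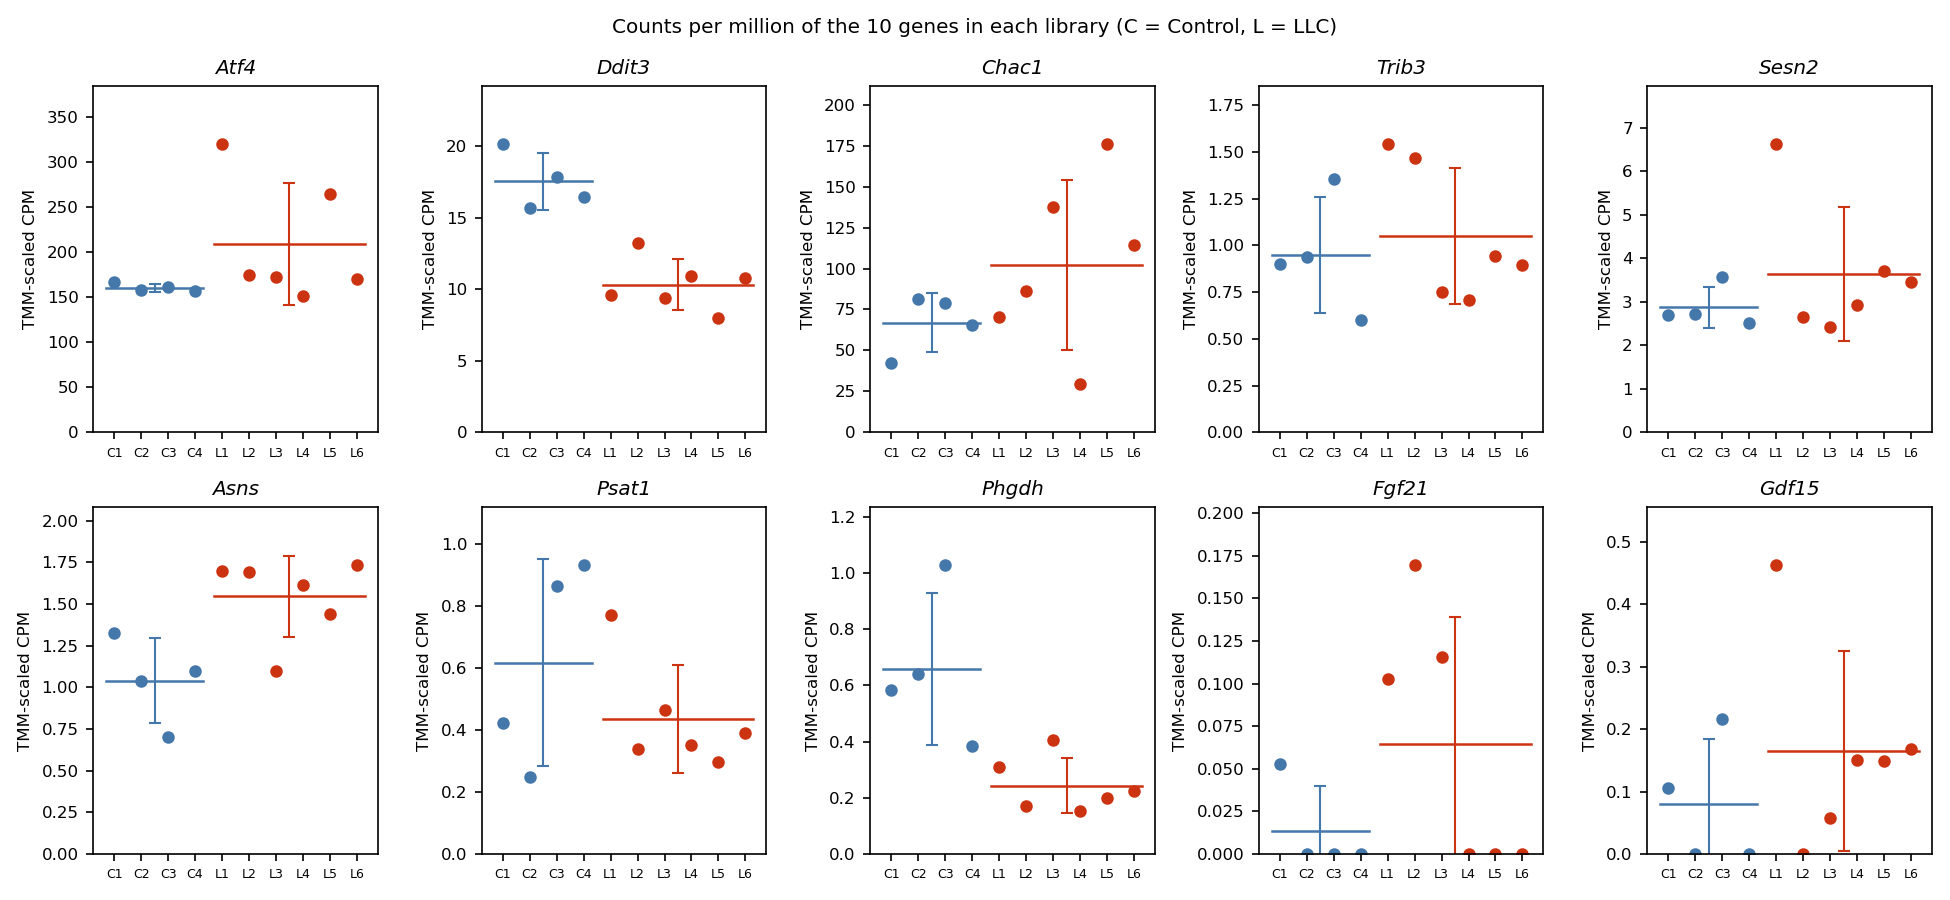
TMM-scaled CPM of each of the 10 genes in the 4 Control (blue, C1 to C4) and 6 LLC (red, L1 to L6) libraries, with a linear axis from 0 in each panel, a horizontal line at each group mean and a bar of 1 SD, which is cut at 0. Ddit3 is the 1 gene whose groups do not overlap, at 15.7 to 20.2 CPM for Control against 8.03 to 13.3 CPM for LLC, and Atf4 is high in L1 and L5.

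The levels of the 10 genes spanned a wide range. Per kilobase of exon (RPKM, the CPM over the exonic length), Control levels in descending order were 68.2 ± 1.84 for Atf4, 40.9 ± 11.0 for Chac1, 10.2 ± 1.15 for Ddit3, 0.828 ± 0.135 for Sesn2, 0.446 ± 0.145 for Trib3, 0.380 ± 0.0938 for Asns, 0.265 ± 0.108 for Phgdh, 0.145 ± 0.0785 for Psat1, 0.0435 ± 0.0558 for Gdf15 and 0.0139 ± 0.0278 for Fgf21 (SD, n = 4). From Trib3 downward, each gene and the next in this order overlapped within 1 SD of their means. In LLC the leading pair, Atf4 at 88.7 ± 28.7 and Chac1 at 62.5 ± 31.7 RPKM (SD, n = 6), overlapped, and Asns at 0.565 ± 0.0887 stood above Trib3 at 0.495 ± 0.171 RPKM within the spread. Psat1, Phgdh, Gdf15 and Fgf21 lay together at the bottom, between 0.0680 and 0.102 RPKM.

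Atf4 (ENSMUSG00000042406, chromosome 15, 80255184 to 80257541), the transcription factor of the response, was nearly uniform in Control, at 167, 158, 161 and 157 CPM in Control 1 to 4. In LLC it was 321 CPM in LLC 1 and 264 CPM in LLC 5, while LLC 2, 3, 4 and 6 had 175, 173, 151 and 171 CPM. LLC 1 and LLC 5 were thus 1.99 and 1.64 times the Control mean, and the other 4 lay between 0.940 and 1.09 times it. The coefficient of variation was 2.69% in Control and 32.3% in LLC. The log2 fold change was 0.38 ± 0.20 (SE), with an adjusted p of 0.235, and over 19 alternatives it ranged from 0.11 with sample quality weights to 0.46, with 0.22 without LLC 1.

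Ddit3 (ENSMUSG00000025408, chromosome 10, 127290774 to 127296288), which encodes CHOP, a factor of the late stress response linked to cell death, moved the other way. Its levels were 20.2, 15.7, 17.8 and 16.5 CPM in Control 1 to 4 and 9.62, 13.3, 9.38, 10.9, 8.03 and 10.8 CPM in LLC 1 to 6. All 6 LLC values lay below all 4 Control values. Ddit3 fell by 0.76 ± 0.13 (SE) on the log2 scale, from 17.5 ± 1.98 CPM (SD, n = 4) to 10.3 ± 1.78 CPM (SD, n = 6), with an adjusted p of 0.00562. LLC 5, where Atf4 was second highest, had the lowest Ddit3. Next lowest was LLC 3 at 9.38 CPM, with Atf4 at 1.07 times its Control mean. Exons of Ddit3 overlap those of Mars, the methionyl-tRNA synthetase gene, and Gm4189 on the opposite strand, so its count depends on the strand setting, which is not known here. Mars had 59.1 to 63.7 CPM in Control and 63.5 to 113 CPM in LLC. A second annotated gene of the same symbol overlaps on the same strand, but it is not among the genes listed for the libraries.

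Chac1 (ENSMUSG00000027313, chromosome 2, 119351229 to 119354381), whose product breaks down glutathione and which is induced by ATF4, varied widely in both groups. Control 1 to 4 had 42.2, 81.7, 78.8 and 65.4 CPM, and LLC 1 to 6 had 70.2, 86.0, 137, 29.5, 176 and 114 CPM. Thus 4 LLC libraries exceeded every Control library, LLC 1 fell within the Control range and LLC 4 below it. The log2 fold change was 0.61 ± 0.39 (SE) with an adjusted p of 0.317, and leaving out 1 library at a time moved it from 0.38 to 0.80. Over all 19 alternatives the lowest value was 0.13. The order of the LLC libraries differed from that of Atf4, since LLC 1 had the most Atf4, while 4 other LLC libraries had more Chac1 than LLC 1.

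Trib3 (ENSMUSG00000032715, chromosome 2, 152337422 to 152344032), a pseudokinase that restrains ATF4 and Akt, was near 1 CPM in most libraries. Control values were 0.900, 0.938, 1.35 and 0.603 CPM, and LLC values ran from 0.705 to 1.54 CPM with a median of 0.918 CPM, on 11 to 30 counts a library. The highest were LLC 1 at 1.54 and LLC 2 at 1.47 CPM. The log2 fold change of 0.15 ± 0.29 (SE, adjusted p = 0.763) turned to -0.0154 without Control 4.

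Sesn2 (ENSMUSG00000028893, chromosome 4, 132492032 to 132510501), a leucine sensor that inhibits mTORC1 and answers to both ATF4 and p53, was 2.70, 2.72, 3.57 and 2.52 CPM in Control 1 to 4. LLC 1 had 6.63 CPM, 2.31 times the Control mean, and LLC 2 to 6 had 2.65, 2.43, 2.92, 3.72 and 3.47 CPM. Only LLC 1 and LLC 5 exceeded every Control library. The log2 fold change was 0.34 ± 0.27 (SE) with an adjusted p of 0.410, and without LLC 1 it was 0.0919. Over all 19 alternatives the lowest value was 0.0147.

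Of the amino acid synthesis genes, Asns (ENSMUSG00000029752, chromosome 6, 7675169 to 7693254), the asparagine synthetase, was the one with the most even difference. Control values were 1.32, 1.04, 0.703 and 1.10 CPM and LLC values were 1.70, 1.69, 1.10, 1.61, 1.44 and 1.73 CPM, so 5 of 6 LLC libraries exceeded every Control library. The log2 fold change was 0.57 ± 0.20 (SE), a 1.48-fold difference, with an adjusted p of 0.109, on 13 to 33 counts a library. Its highest library was LLC 6, and LLC 5 was lower than LLC 1, 2, 4 and 6. Its adjusted p stayed above the threshold in all alternatives, from 0.0738 to 0.290.

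Phgdh (ENSMUSG00000053398, chromosome 3, 98313170 to 98339990) and Psat1 (ENSMUSG00000024640, chromosome 19, 15904678 to 15947337) encode the first and second enzymes of serine synthesis, and both were too rare for the main test. Phgdh had 11, 13, 19 and 7 counts in Control 1 to 4 and 6, 3, 7, 3, 4 and 4 counts in LLC 1 to 6. That is 0.659 ± 0.269 CPM (SD, n = 4) against 0.243 ± 0.0969 CPM (SD, n = 6), with 5 of 6 LLC libraries below every Control library. An exact permutation test over the 210 possible assignments of group labels gave a two-sided p of 0.0190 for Phgdh, and 0.0762 after Benjamini-Hochberg adjustment over the 4 rare genes. With no filter its log2 fold change was -1.41 ± 0.37 (SE), with an adjusted p of 0.0426 over 21983 genes. Psat1 had 8, 5, 16 and 17 counts in Control and 15, 6, 8, 7, 6 and 7 counts in LLC, or 0.617 ± 0.334 against 0.436 ± 0.174 CPM, and the groups overlapped (exact permutation test, two-sided, p = 0.286).

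The secreted members were at the limit of detection. Fgf21 (ENSMUSG00000030827, chromosome 7, 45613886 to 45615490), a hormone of fasting and mitochondrial stress, had 1, 0, 0 and 0 counts in Control and 2, 3, 2, 0, 0 and 0 counts in LLC. Gdf15 (ENSMUSG00000038508, chromosome 8, 70629393 to 70632456), whose protein lowers food intake through a receptor in the hindbrain, had 2, 0, 4 and 0 counts in Control and 9, 0, 1, 3, 3 and 3 counts in LLC, the highest in LLC 1 at 0.463 CPM. Mean levels were 0.0132 against 0.0647 CPM for Fgf21 and 0.0806 against 0.165 CPM for Gdf15. No difference was detectable at this depth, with two-sided p-values of 0.333 and 0.457 in the exact permutation test. Its smallest possible p is 0.00952, but not for a rise in Fgf21. There the libraries tied at 0 keep p above 0.05, so the test could not have detected a rise in Fgf21. A 0 in these libraries allows a level of up to 0.148 to 0.174 CPM, and these limits cover counting error only.

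The other genes of the pathway were taken in 10 lists of 90 genes, of which 83 were tested. Of the 83, 1 passed as higher (Slc3a2) and 2 passed in all, the second being Nupr1 as lower, a share of 2.41% beside the 5.63% of all tested genes. By unadjusted p (0.05) 27 of 83 passed, 20 as higher and 7 as lower, where 12.7% of all genes were higher and 14.6% lower. The DESeq2 Wald test called 7 of the 83, where it called 8.29% of all tested genes, adding Cdkn1a, Gadd45a, Cebpb, Vars and Map1lc3b, all higher. Groups did not overlap for 10 of the 83 as higher in LLC and for 3 as lower, where 6.40% and 9.57% of all tested genes showed these patterns. The edgeR count was 0 without any 1 of the 4 Control libraries or without LLC 5, 4 without LLC 1 or LLC 2, 5 without LLC 4, and 1 without LLC 6.

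**Figure D2:**
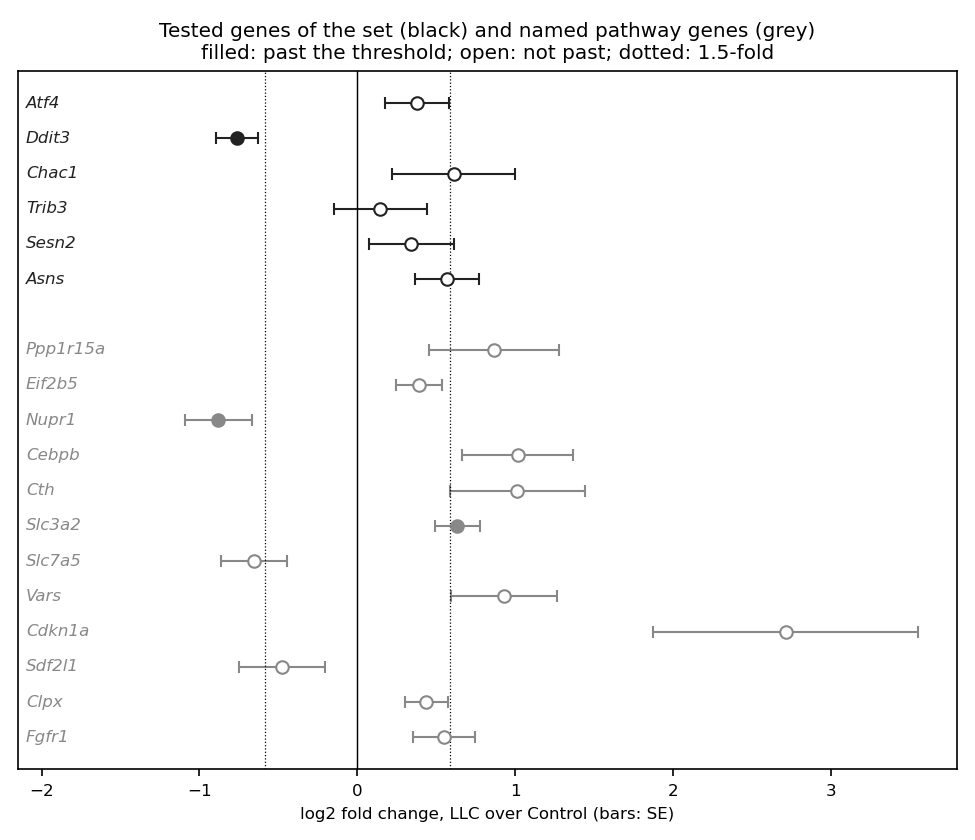
Log2 fold change of LLC over Control (points, with bars of 1 SE) for the 6 tested genes of the set in black and the pathway genes chosen by the naming rule in grey, filled where past the threshold, with dotted lines at 1.5-fold. Ddit3 and Nupr1 lie below 0 and Slc3a2 above it with filled points, and Cdkn1a has the largest value, 2.71 ± 0.84.

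Upstream of Atf4, 0 of 6 genes for eIF2 alpha kinases and phosphatase regulators passed. By unadjusted p 3 did, where 27.4% of all tested genes did. Eif2ak3, which encodes the ER kinase PERK, was lower in all 6 LLC libraries, at 2.21 to 3.58 CPM against 3.72 to 4.76 CPM, with a difference of -0.56 ± 0.15 (SE) on the log2 scale that had an adjusted p of 0.0472 but fell short of 1.5-fold. Of the fits with 1 library left out, only the one without LLC 4 called it (-0.65, adjusted p = 0.0218). It was chosen after its values were seen. Ppp1r15a, an ATF4 target whose product GADD34 reverses eIF2 phosphorylation, had the largest difference, 0.87 ± 0.41 (SE, adjusted p = 0.195), which was 0.45 without LLC 1 and 0.18 under limma voom. It was 24.0 to 32.6 CPM in Control, 121 CPM in LLC 1, 73.0 CPM in LLC 5 and 27.1 to 35.1 CPM in the other 4 LLC libraries. All 8 subunits of eIF2 and its exchange factor eIF2B had log2 fold changes above 0, from 0.14 to 0.39, and none passed. Eif2b5 was the furthest, at 0.39 ± 0.15 (SE, adjusted p = 0.121).

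Among 6 partner transcription factors Nupr1, a small stress-induced chromatin protein, fell by 0.88 ± 0.21 (SE) on the log2 scale, with an adjusted p of 0.0307. Its Control values were 2.12, 2.57, 3.30 and 2.14 CPM and its LLC values ran from 1.04 to 2.03 CPM with no overlap. This call was lost without any 1 of the 4 Control libraries and without LLC 3, LLC 5 or LLC 6. Cebpb, a C/EBP factor that can pair with ATF4, was 3.21 to 5.57 CPM in Control and 4.29 to 13.4 CPM in LLC, highest in LLC 5 and LLC 1. Its log2 fold change of 1.02 ± 0.35 (SE) had an adjusted p of 0.101 in edgeR and 0.0352 in DESeq2. Median log2 fold change of the 6 was -0.11.

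Amino acid genes had differences of both signs. Of 9 tested enzymes of amino acid and one-carbon metabolism, 6 had negative log2 fold changes, the median was -0.40 and none passed. Cth, the cystathionine lyase that makes cysteine, was the furthest, at 1.01 ± 0.43 (SE, adjusted p = 0.157) and 0.58 without LLC 1, with 3.81 CPM in LLC 1 and 1.01 to 1.47 CPM in LLC 2 to 6, against 0.477 to 1.08 CPM in Control. Of 6 tested amino acid transporters Slc3a2, the heavy chain of the large neutral amino acid exchanger, rose from 20.5 ± 1.37 CPM (SD, n = 4) to 31.9 ± 6.43 CPM (SD, n = 6). On the log2 scale this was 0.63 ± 0.14 (SE), with an adjusted p of 0.0221, and all 6 LLC libraries, at 26.5 to 40.9 CPM, exceeded the Control libraries, at 18.6 to 21.8 CPM. The call was lost without any 1 of the Control libraries and, by falling short of 1.5-fold, without LLC 1 or LLC 5 and under limma voom. Slc7a5, the light chain that pairs with Slc3a2, had the opposite sign, -0.66 ± 0.21 (SE, adjusted p = 0.0831), with 5 of 6 LLC libraries below every Control library, and passed as lower without LLC 1 (adjusted p = 0.0365) and under limma voom (-0.79, adjusted p = 0.0135). Slc1a4, a neutral amino acid transporter chosen after its values were seen, was too rare for the main test, with 10, 11, 6 and 6 counts in Control 1 to 4 and 1 or 2 counts in each LLC library. With no filter it passed as lower (log2 fold change -2.33, adjusted p = 0.00415).

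Of 13 cytosolic aminoacyl-tRNA synthetase genes, which charge tRNAs with amino acids, 12 had log2 fold changes above 0, with a median of 0.20. None passed, and 5 did by unadjusted p, where 27.4% of all tested genes did. Vars, for valine, was the furthest, at 0.93 ± 0.33 (SE, adjusted p = 0.109). It was 0.57 without LLC 1, with an adjusted p of 0.0393 but short of 1.5-fold, and 0.43 under limma voom. It was 26.4 to 28.8 CPM in Control, 112 CPM in LLC 1, 59.0 CPM in LLC 5 and 30.3 to 43.7 CPM in the other LLC libraries, with no overlap between the groups.

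The 8 ATF4 targets in growth control and atrophy had the largest median, 1.23, with 7 of 8 above 0. By unadjusted p 6 passed, where 27.4% of all tested genes did, and none passed after adjustment. Cdkn1a, the cell cycle inhibitor p21 and also a p53 target, differed by 2.71 ± 0.84 (SE) on the log2 scale, with an adjusted p of 0.0758. Its values were 5.68 to 12.0 CPM in Control and 246, 28.4, 21.7, 10.2, 45.2 and 26.1 CPM in LLC 1 to 6, and without LLC 1 it passed with a smaller log2 fold change of 1.47 (adjusted p = 0.0174), and without LLC 4 with 2.94 (adjusted p = 0.0429). Chosen after their values were seen, Gadd45a, Eif4ebp1 and Ddit4 had the same pair of high libraries. Gadd45a, a growth arrest gene linked to ATF4 in muscle atrophy, was 6.90 to 8.20 CPM in Control, 135 CPM in LLC 1, 47.7 CPM in LLC 5 and 13.2 to 18.3 CPM in the others (adjusted p = 0.0607), and it passed without LLC 1 (adjusted p = 0.0157), LLC 2 (0.0487), LLC 3 (0.0464) or LLC 4 (0.0436), with no filter (0.0393), and under DESeq2 (0.0107) and limma voom (0.00637). Eif4ebp1, a translation repressor, was 28.2 to 30.3 CPM in Control, 270 CPM in LLC 1, 131 CPM in LLC 5 and 28.7 to 50.2 CPM in the others (adjusted p = 0.111). Ddit4, an mTORC1 inhibitor, was 3.44 to 15.7 CPM in Control, 133 CPM in LLC 1, 88.2 CPM in LLC 5 and 5.09 to 23.8 CPM in the others (adjusted p = 0.115). Exons of Cdkn1a, Gadd45a, Map1lc3b, Ppp1r15a, Eif2ak3, Cebpb and Fgfr1 overlap an antisense gene.

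In the neighbouring stress branches no gene passed. None of 14 genes of the ATF6 and XBP1 branches of the unfolded protein response did so even by unadjusted p, in edgeR or DESeq2. The median log2 fold change of the 14 was 0.0932, and by unadjusted p 27.4% of all tested genes passed in edgeR. Sdf2l1, an ER chaperone partner, was the furthest, at -0.48 ± 0.27 (SE, adjusted p = 0.264). By library, the median over the 14 of log2 CPM minus the Control mean was 0.35 in LLC 1 and -0.0609 to 0.00702 in LLC 2 to 6. In LLC 1 only Pdia4 and Sdf2l1 lay below their Control means. Xbp1, chosen after its values were seen, was 43.9 to 46.3 CPM in Control, 106 CPM in LLC 1 and 75.2 CPM in LLC 5. It was 44.1 to 50.2 CPM in the other LLC libraries. None of 9 mitochondrial chaperone and protease genes passed, with a median of 0.0513 and Clpx, the unfoldase of a matrix protease, the furthest at 0.44 ± 0.14 (SE, adjusted p = 0.0794). Of the receptor genes for FGF21 and GDF15, 4 of 7 were tested and none passed. Fgfr1 was the furthest, at 0.55 ± 0.20 (SE, adjusted p = 0.110). Klb, the co-receptor that FGF21 needs, had at most 2 counts in a library, and Gfral, the receptor of GDF15, had 0 in all 10.

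**Figure D3:**
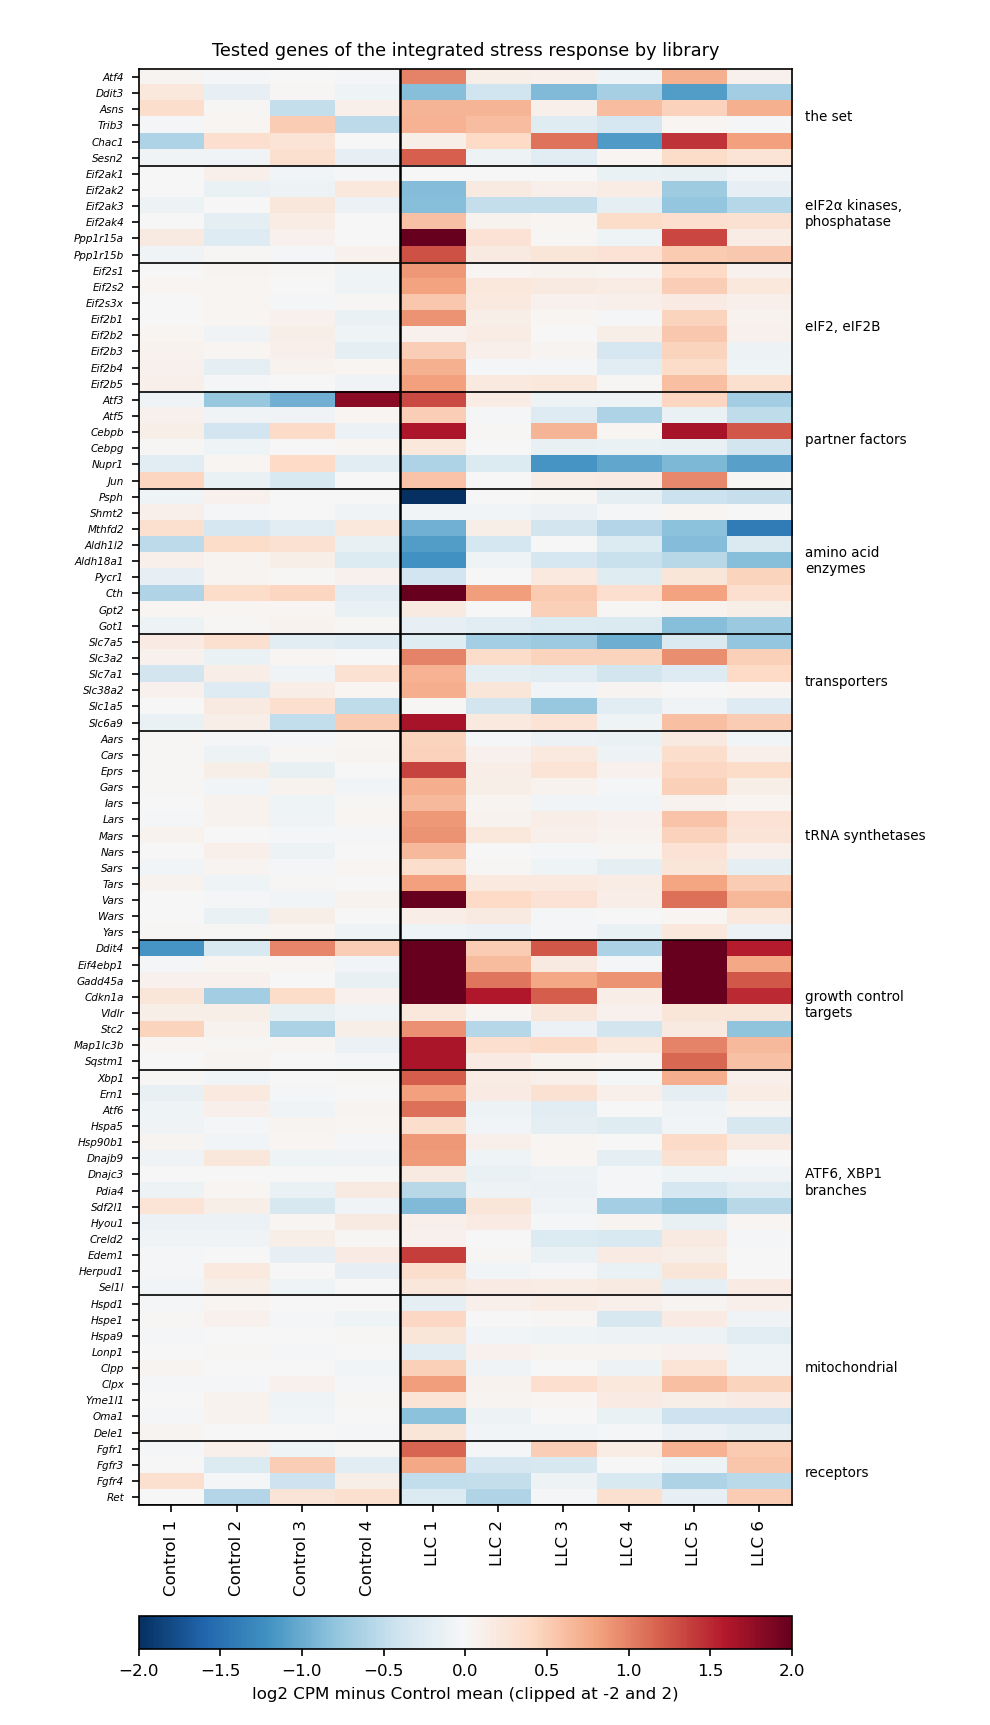
Log2 CPM minus the Control mean (color, clipped at -2 and 2) for the tested genes of the set and of the 10 pathway lists (rows) in each library (columns), with a vertical line between Control and LLC. The LLC 1 and LLC 5 columns are the reddest, most of all in the growth control targets, while Ddit3, Nupr1 and Eif2ak3 are blue across the LLC columns.

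Within the LLC group the pathway genes were spread unevenly over the libraries. In LLC 1, 38 of the 83 tested pathway genes (45.8%) were at least 1.5-fold above the Control mean, where 20.3% of all tested genes were. In LLC 5 they were 18 of 83 (21.7%), where 11.1% of all genes were. In LLC 2, 3, 4 and 6 they were 4, 4, 1 and 8 of 83, where 3.35%, 3.16%, 3.50% and 6.00% of all genes were. At least 1.5-fold below the Control mean were 9 of 83 (10.8%) in LLC 1 and 8 of 83 (9.64%) in LLC 5, where 24.7% and 16.8% of all tested genes were. LLC 1 and LLC 5 were the highest 2 of the 6 LLC libraries for 42 of the 83 genes (50.6%), and for 20.7% of all tested genes. Over the 83 genes the SD of log2 CPM had a median of 0.0909 in Control and 0.31 in LLC, beside 0.127 and 0.28 over all tested genes. These shares are descriptions of single libraries and were not tested, nor was the part that the low mitochondrial share of LLC 1 and LLC 5 has in them.

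**Figure D4:**
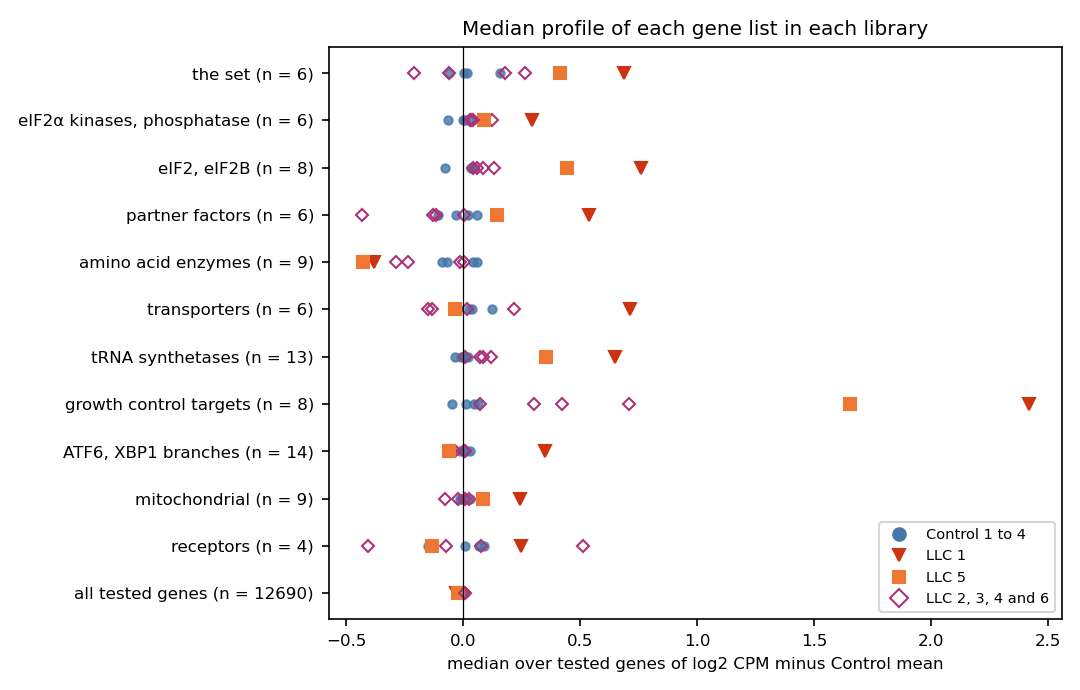
Median over the tested genes of each list of log2 CPM minus the Control mean, 1 point for each library, with Control in blue circles, LLC 1 as a red triangle, LLC 5 as an orange square and the other LLC libraries as open diamonds. For the growth control targets LLC 1 lies at 2.42 and LLC 5 at 1.65 with the others at 0.0715 to 0.71. For all tested genes every library lies near 0, where the TMM scaling tends to place it.

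Ddit3 and the mean of the 6 tested genes were compared with the profiles of other genes, a profile being log2 CPM minus its Control mean in the 10 libraries. Nearest to Ddit3 by root mean square difference over the 10 libraries were Car8 (0.111), Sfrp5 (0.137) and Lurap1l (0.139). They had log2 fold changes of -0.74, -0.76 and -0.96 and also passed the threshold. Such likeness follows from the choice, since a profile holds the difference between the groups. Nearest to the mean of the 6 were Vac14 (0.0766), Ubtd1 (0.0789) and Zfyve19 (0.0792), none of which passed. That mean ran from -0.12 to 0.11 in Control and was 0.47 in LLC 1, 0.32 in LLC 5, 0.22 in LLC 2, 0.20 in LLC 6, -0.0119 in LLC 3 and -0.26 in LLC 4.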

How the data were processed

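RNA of the tibialis anterior was measured in 4 Control and 6 LLC mice, 1 library a mouse, all in 1 sequencing lane. The authors mapped reads to mm10 with TopHat2 and counted them with HTSeq, and the deposited values are raw counts per gene, neither normalized nor pooled. The libraries were strand-specific, and the methods name RefSeq genes and default HTSeq settings, but the files list Ensembl identifiers, so neither the gene models used nor how strand was handled is known for these counts. Of 39179 identifiers 37693 were in GENCODE M21 (GRCm38, the same build), which gave symbols, positions and exonic lengths.

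Genes were kept by filterByExpr (count minimum 10) and libraries scaled by TMM. The groups were fitted in edgeR 4.0.16 (R 4.3.3) and tested by its quasi-likelihood F test, with p-values adjusted by Benjamini-Hochberg over all 12690 tested genes and SE taken from the F statistic. Log2 CPM used a prior count of 2. Genes under the filter were compared by an exact permutation test of CPM, two-sided, with p as 2 times the smaller tail. DESeq2 1.42.0 and limma 3.58.1 (voom with sample quality weights) were alternatives, beside other scalings and filters, a block for replicate number, and fits with 1 library left out. The test scripts were checked on simulated data. Replicate libraries differed by 3.71 times sampling noise or more (chi-square per degree of freedom), so each counted once.

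The genes, lists and tests were chosen with earlier results of these data known. Pathway genes named are, in each list, those past the threshold and the furthest one that was not. Genes of like profile are the nearest 3 with an average log2 CPM of at least 0. Exceptions are stated. Lists were described by counts and medians only.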

Additional observations from a re-analysis of the deposited data

Results flagged for a closer look

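Single libraries set off from their own group were looked for in the 20 groups that the 10 genes give, by the gap to the nearest library over the range of the group, and 3 were found, where chance gives about 1 in 20 for continuous values. These genes had few counts, to which that share need not apply. All 3 were rare genes outside the main test. The gap was taken in log2 CPM for tested genes but in CPM for the rare ones. Flags of tested and rare genes therefore cannot be compared. Sesn2 in LLC 1, at 6.63 CPM with 3.72 CPM next, was not flagged in log2 CPM, a scale that narrows such a gap. Psat1 was highest in LLC 1, at 0.771 CPM with 0.463 CPM next, a ratio of 0.650. Gdf15 was highest in LLC 1, at 0.463 CPM with 0.168 CPM next, a ratio of 0.638. Fgf21 was highest in Control 1, with 1 count where the other 3 Control libraries had 0, a ratio of 1 that any single count among zeros gives.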

How the results depend on the processing

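The call of Ddit3 held in 18 of 19 alternatives, with log2 fold changes of -0.83 to -0.69, and was lost with the replicate number as a block (-0.71, adjusted p = 0.146). Atf4, Asns, Chac1 and Sesn2 kept their sign and stayed short of the threshold in all 19. Trib3 turned to -0.0154 without Control 4 and ranged up to 0.36 with 1 library left out. The number of the 10 genes past the threshold was 1, and became 2 with no filter, 0 with the block, and 1 to 2 with 1 library left out. For the pathway genes the 2 calls became 4 with no filter, of which Slc1a4 was not among the 83 tested in the main fit. They became 7 with DESeq2, 4 with limma voom, 0 with the block, and 0 to 5 with 1 library left out. For all genes the 715 calls became 475 with at least 10 counts in every sample, 112 with the block, 1052 with DESeq2, and 415 to 966 with 1 library left out. The replicate numbers belong to different mice, and same-numbered libraries did not deviate together (correlations of -0.0814 to 0.126), so the block pairs libraries by number only, and LLC 5 and LLC 6 have no partner in it. No scaling moved the median of all genes by more than 0.1 on the log2 scale (upper-quartile -0.0344, median-of-ratios 0.0105). Depth limits Psat1, Phgdh, Fgf21 and Gdf15, which had 0 to 19 counts a library.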
